A study of Mus musculus with 19 samples.

Results

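The AP-1 transcription factor genes described here are *Fos*, *Fosb*, *Fosl1*, *Fosl2*, *Jun*, *Junb*, *Jund*, *Atf3* and *Egr1*, which are 9 of the 53558 genes listed for each library. They were picked by gene symbol, with earlier results of these data known, and all 9 passed the filter on low counts that left 13986 genes to test. The values come from bulk RNA-seq of neoplastic cells sorted from lung tumors in mice whose Cre-dependent alleles, shared by every group, include a tdTomato reporter (R26LSL-tdTomato) and Cas9 (H11LSL-Cas9). Lentiviral vectors delivered Cre together with sgRNAs, so that Cas9 acted in the cells that became tumors. The groups were sgInert (Lenti-sgNeo1/sgNT1/sgNeo2/Cre, control sgRNAs, 7 libraries), sgCebpa/b/d (Lenti-sgCebpa/sgCebpb/sgCebpd/Cre, directed at the C/EBP factor genes *Cebpa*, *Cebpb* and *Cebpd*, 7 libraries) and sgLkb1 (Lenti-sgLkb1/Cre, directed at the kinase gene *Lkb1*, symbol *Stk11*, 5 libraries), all taken 17 weeks after infection. Enzymatic dissociation (collagenase IV with dispase and trypsin) took 30 min at 37 °C, and cells that carried CD45, CD31, F4/80 or Ter119 were removed by sorting, as were dead cells. Females gave 3 of the sgInert, 4 of the sgCebpa/b/d and all 5 of the sgLkb1 libraries. Mice with tumors initiated in the lung were 6 to 12 weeks old at initiation, and the age of each animal is not given in the sources used here.

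AP-1 is a dimer of basic leucine zipper proteins in which a FOS family member (*Fos*, *Fosb*, *Fosl1*, *Fosl2*) pairs with a JUN family member (*Jun*, *Junb*, *Jund*), while ATF3 belongs to the related ATF family and can pair with JUN proteins. Several of these genes are immediate-early genes, whose transcripts rise within minutes of a growth factor, stress or wounding stimulus, without new protein synthesis, and are also known to rise while tissue is enzymatically dissociated. *Egr1* encodes a zinc finger factor and not an AP-1 subunit. It is an immediate-early gene that responds to the same stimuli and was among the genes chosen.

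The sequences just before the start sites of 4 members are shown, since these genes were among those that moved together from library to library, as given below, and their RefSeq starts lay within 30 bases of the GENCODE gene starts. *Egr1* and *Atf3* moved as closely and are not shown, since *Egr1* had no window and the RefSeq start of *Atf3* lay 34706 bases from its GENCODE start. Each line holds the 100 bases before the RefSeq start of the gene, 5′ to 3′ on the gene's own strand, in GRCm38.p6: *Fos* at chr12:85473790-85473889 (plus strand), *Fosb* at chr7:19310046-19310145 (minus), *Jun* at chr4:95052223-95052322 (minus) and *Junb* at chr8:84978749-84978848 (minus). Capitals mark the letters TGACGT and TATAAA in *Fos* and TGACATCA in *Jun*.
Fos: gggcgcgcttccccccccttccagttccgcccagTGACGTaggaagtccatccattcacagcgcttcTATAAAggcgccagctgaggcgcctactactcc
Fosb: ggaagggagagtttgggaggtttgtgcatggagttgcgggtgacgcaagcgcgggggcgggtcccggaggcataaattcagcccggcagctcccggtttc
Jun: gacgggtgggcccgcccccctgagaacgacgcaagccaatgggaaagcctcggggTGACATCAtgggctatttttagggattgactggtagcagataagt
Junb: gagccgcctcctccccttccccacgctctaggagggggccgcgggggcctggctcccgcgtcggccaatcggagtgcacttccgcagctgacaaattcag
In *Fos*, TGACGT, the first 6 letters of the cyclic AMP response element, lay at -66 to -61 and TATAAA at -33 to -28 from the start. In *Jun*, TGACATCA, a variant of the AP-1 site, lay at -45 to -38. RefSeq windows of 300 bases (250 before and 50 from the start on) were at hand for 7 of the 9 members, not for *Fosl1* and *Egr1*. On either strand, TGACGT was in 2 of the 7 (*Fos* and *Atf3*) and in 7.51% of all 32851 windows, and TGACATCA in 1 of the 7 and in 3.62%. The sense-strand TATAAA was in 2 of the 7 (*Fos* and *Junb*) and in 8.32% of all windows. The AP-1 site TGANTCA (7.81% of all windows), the full cyclic AMP response element TGACGTCA (1.79%), which contains TGACGT on both strands, and the CArG box bound by serum response factor (1.63%) were in none of the 7 windows. These matches describe letters in these windows and were not tested for binding. Sites outside the windows, and any sites of *Fosl1* and *Egr1*, were not searched, so a motif counted as absent may lie elsewhere.

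The libraries held 2760722 to 9944131 counts (median 6028918). Their titles fall into 3 series: 10 carry an animal number that starts with MT (3 sgInert, 4 sgCebpa/b/d and 3 sgLkb1 libraries from 6 animals), 4 sgInert libraries carry a number that starts with ZR (4 animals), and 2 sgLkb1 with 3 sgCebpa/b/d libraries, here called unnumbered, have no such number. Of the 10 numbered animals, 3 gave more than 1 library. The animals behind the 5 unnumbered libraries are not given, so that some of these may share an animal, and they were treated as separate. Hence n counts libraries, and p-values measure the spread between libraries, which may in part be technical. *Stk11*, the gene targeted in sgLkb1, had 2.97 to 3.68 log2 CPM (log2 of counts relative to library size) in sgLkb1 and 4.31 to 4.53 in sgInert, a log2 fold change of -1.24 (SE 0.17, edgeR adjusted p = 0.000107). The transcripts of the C/EBP genes were not used as a check of the sgCebpa/b/d libraries, since small insertions and deletions made by Cas9 need not lower a transcript. All 9 lung epithelial markers had counts in every library. Among them, *Sftpc*, a surfactant protein gene of alveolar type II cells, had 9640 to 17400 CPM over the 19 libraries. *Nkx2-1*, a lung lineage factor, had 191 to 339 CPM. *Adgre1* (F4/80) was at 0 in all 14 numbered libraries and at 1.69 to 3.58 CPM in the 5 unnumbered ones, where *Ptprc* (CD45) reached 7.72 to 44.3 CPM against 0 to 1.86 in MT and 0.36 to 4.66 in ZR libraries. *Ly6g*, a neutrophil gene, was at 0 in all 19. In bulk RNA, fewer cells that express a gene and less RNA of it per cell cannot be told apart.

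Per length, *Fos* was the most abundant of the 9 genes in every group. The median TPM (a share of the transcripts of a library, corrected for length) of *Fos* was 599, 1680 and 1626 in sgInert, sgCebpa/b/d and sgLkb1, followed by *Egr1* with 482, 794 and 784 and by *Jun* with 354, 514 and 427. *Atf3* came next with 151, 244 and 284 TPM. *Fosb* and *Junb* changed places, *Junb* being above *Fosb* in sgInert (58.8 against 48.2) and below it in sgCebpa/b/d (88.4 against 139) and in sgLkb1 (98.5 against 137). *Fosl2* (15.1, 27 and 24.6), *Jund* (7.55, 11.1 and 10.1) and *Fosl1* (4.29, 2.96 and 8.15) were the 3 lowest in all groups. The ranges of neighbours in this order overlapped for all 8 neighbouring pairs in sgInert. They did so for 6 of 8 in sgCebpa/b/d and for 3 of 8 in sgLkb1. This compares different libraries, and genes of 1 library can keep their order where the ranges overlap. *Fos* was above *Egr1*, and *Jun* above *Atf3*, in every library. *Jun* was above *Egr1* in sgInert replicate 6 (110 against 58.3 TPM), against the order of the medians.

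**Figure D1:**
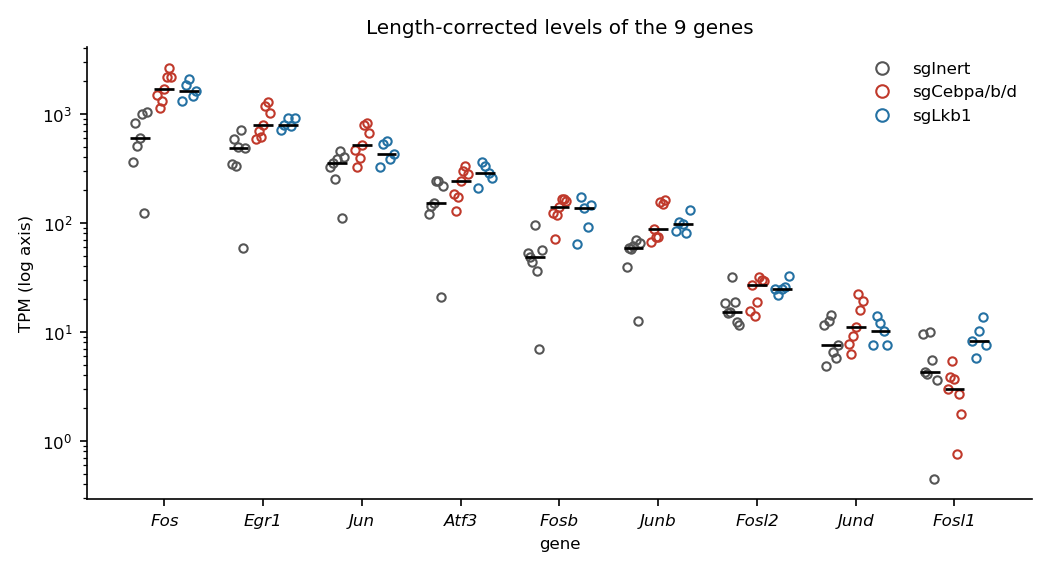
TPM on a log axis of the 9 genes, 1 point per library, by group, with a line at the median of the group. *Fos* has the highest median in each group (599, 1680 and 1626) and *Fosl1* the lowest (4.29, 2.96 and 8.15).

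Between sgCebpa/b/d and sgInert, *Fos*, *Fosb*, *Junb* and *Egr1* were higher in the sgCebpa/b/d libraries, and the remaining 5 genes did not pass both thresholds (a Benjamini-Hochberg adjusted p under 0.05 in edgeR's quasi-likelihood test and an absolute log2 fold change above 1). Thus 4 of 9 members were called higher and 0 lower, where 2.65% of all genes tested were called higher and 2% lower. The median log2 fold change of the 9 was 0.82, beside 0.02 for all genes. The comparisons of sgCebpa/b/d and of sgLkb1 with sgInert use the same 7 control libraries.

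*Fos*, the founding FOS subunit (chromosome 12 from 85473890 to 85477273 of GRCm38), had a lowest, median and highest log2 CPM of 7.53, 9.72 and 10.66 in sgInert and of 10.65, 11.14 and 11.92 in sgCebpa/b/d. The groups overlapped at 1 point, since the lowest sgCebpa/b/d library was just under the highest sgInert library. The log2 fold change was 1.52 (SE 0.33, edgeR adjusted p = 0.00364), which is 2.87-fold. *Fosb*, a FOS family member whose transcript is also immediate-early (chromosome 7 from 19302696 to 19310051), had 4.26, 7.08 and 7.93 in sgInert and 7.55, 8.38 and 9.03 in sgCebpa/b/d, a log2 fold change of 1.5 (SE 0.35, edgeR adjusted p = 0.00648). Only the highest sgInert library and the lowest sgCebpa/b/d library crossed. Of the other FOS family genes, *Fosl2* had a log2 fold change of 0.40 with an edgeR adjusted p of 0.342, and *Fosl1* one of -0.83 (edgeR adjusted p = 0.251) on 3 to 58 counts per sgInert and 6 to 42 per sgCebpa/b/d library.

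Among the JUN family, *Junb* was called and *Jun* and *Jund* were not. *Junb* (chromosome 8 from 84974484 to 84978718) had 4.01, 6.23 and 6.41 log2 CPM in sgInert and 6.30, 6.72 and 7.93 in sgCebpa/b/d, with a log2 fold change of 1.13 (SE 0.30, edgeR adjusted p = 0.0182). *Jun*, the main partner of FOS, had 8.03, 9.74 and 10.01 against 9.49, 10.08 and 10.95, and its log2 fold change of 0.82 (SE 0.26, edgeR adjusted p = 0.0488) passed the p threshold and not the fold threshold. *Jund*, which in many cell types is expressed without a stimulus, had 2.62, 3.22 and 3.97 against 2.82, 3.55 and 4.78, with overlapping groups and a log2 fold change of 0.60 with an edgeR adjusted p of 0.273.

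Of the 2 remaining genes, *Egr1* was called and *Atf3* was not. *Egr1* had 7.13, 10.10 and 10.68 log2 CPM in sgInert and 10.37, 10.75 and 11.59 in sgCebpa/b/d, with a log2 fold change of 1.10 (SE 0.33, edgeR adjusted p = 0.0374). *Atf3*, a stress-induced factor, had 4.84, 7.74 and 8.34 against 7.39, 8.24 and 8.84, with a log2 fold change of 0.55 with an edgeR adjusted p of 0.356. The libraries of the 2 groups overlapped for all 9 members, while 3.37% of all genes tested had groups that did not overlap.

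**Figure D2:**
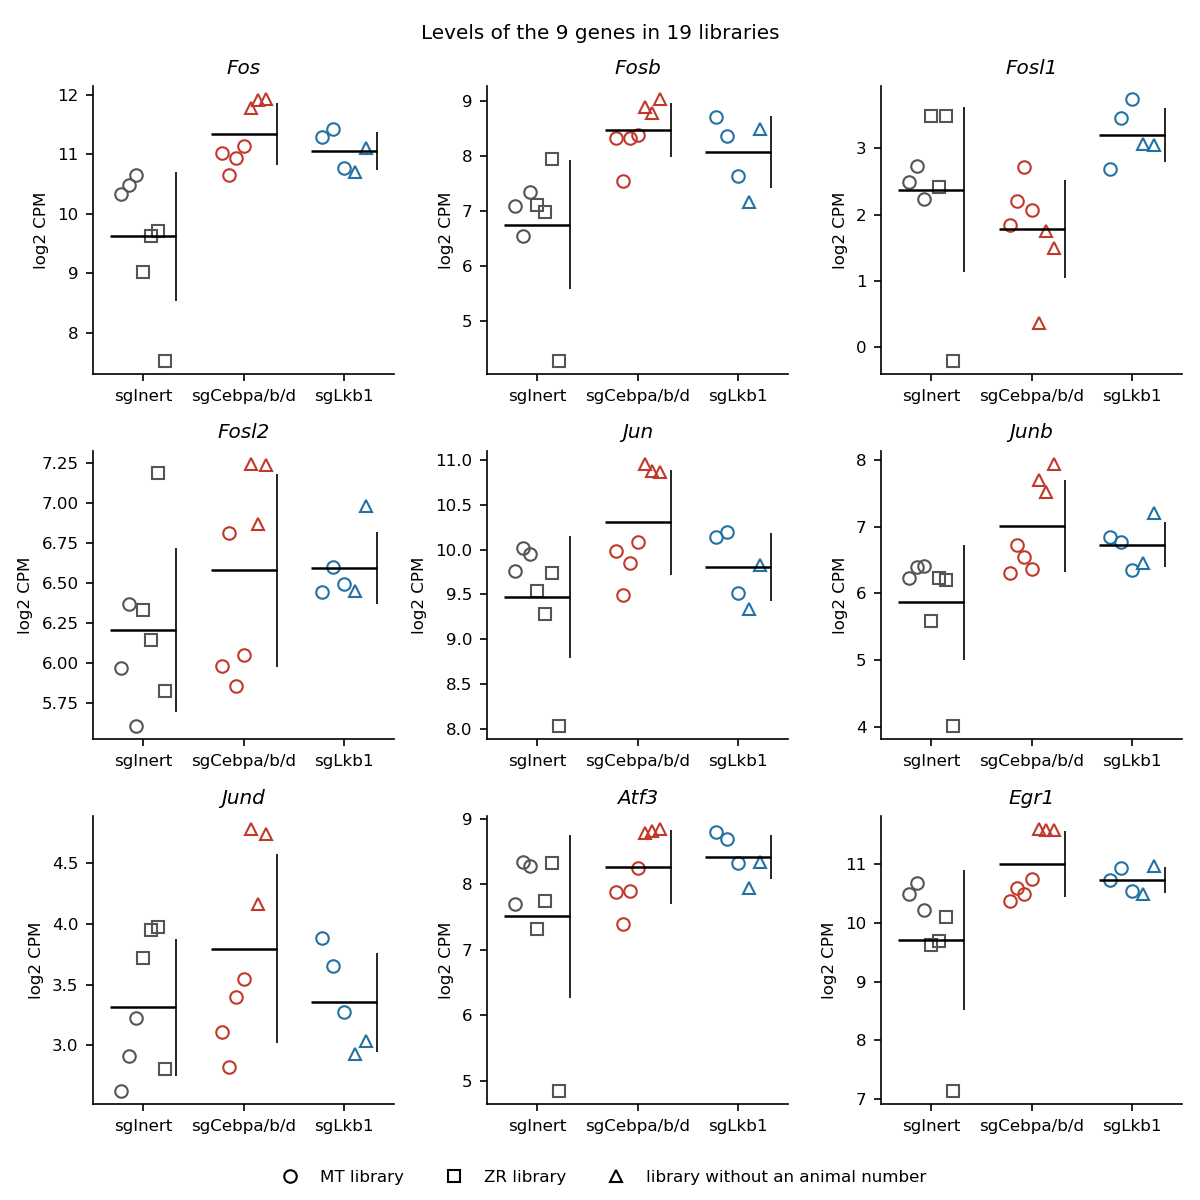
Log2 CPM (prior count 2) of the 9 genes by group, 1 panel per gene, 1 point per library with its shape giving the title series (MT, ZR or unnumbered), a line at the mean and a bar of 1 SD. In sgInert, 1 ZR library (replicate 6) is the lowest point for 7 of the 9 genes, and in sgCebpa/b/d the 3 unnumbered libraries are the highest for 8 of the 9.

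Among MT libraries alone (3 sgInert and 4 sgCebpa/b/d libraries from 2 animals each), 1 of 9 members was called higher, where 2.29% of all genes tested were. It was *Fosb* (log2 fold change 1.15, edgeR adjusted p = 0.0115), at 6.53, 7.08 and 7.34 log2 CPM in the 3 sgInert libraries and at 7.55, 8.32, 8.32 and 8.38 in the 4 sgCebpa/b/d libraries. These 2 sets did not overlap. With the libraries of each MT animal summed, *Fosb* was at 0.92 (edgeR adjusted p = 0.221), and 0 of 9 members were called by edgeR, with 1 at an unadjusted p under 0.05. In that model 1.82% of all 15073 genes tested were called in either direction. Over the MT libraries kept separate, *Fos* had a log2 fold change of 0.44 with an edgeR adjusted p of 0.0922, *Junb* one of 0.14 (0.663), *Egr1* of 0.07 (0.82), *Jun* of -0.05 (0.904) and *Atf3* of -0.27 (0.491). The median of the 9 members was 0.14 beside -0.00 for all genes. With the 14 numbered libraries, 0 of 9 were called by edgeR and 2 had an unadjusted p under 0.05 (*Fos* 1.05, edgeR adjusted p = 0.111, and *Fosb* 1.15, edgeR adjusted p = 0.0995), where 2.98% of all genes were called. With title series as a covariate 0 of 9 were called by edgeR and 1, *Fosb*, had an unadjusted p under 0.05 (1.35, edgeR adjusted p = 0.127), while *Fos* was at 0.67 (edgeR adjusted p = 0.326). The share of all genes called with this covariate is not given here. Endothelial markers moved with the comparison over all libraries, since 5 of 7 were called higher (*Vwf*, *Tie1*, *Kdr*, *Cdh5* and *Pecam1*) and their summed level was 9.32 to 46.5 CPM in sgInert, 14.5 to 47.9 in MT sgCebpa/b/d and 176 to 252 in unnumbered sgCebpa/b/d libraries. Of 8 fibroblast and mural markers tested, 2 were called higher over all libraries, *Dcn* (2.88) and *Col3a1* (1.52), at 13.1 to 162 CPM in sgInert and 64.8 to 250 in sgCebpa/b/d. They were higher within the MT series too, at 13.1 to 21.4 CPM in sgInert and 64.8 to 241 in sgCebpa/b/d, with 6 of 8 called. Lung epithelial markers summed to 44200 to 55100 CPM in sgInert and 25800 to 48300 in sgCebpa/b/d, and 1 of 9 was called lower (*Lamp3*, -1.02). The part of these transcripts in the AP-1 values was not tested.

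Between sgLkb1 and sgInert, *Fos* was the 1 member of 9 called higher and 0 were called lower, where 1.87% of all genes tested were called higher and 1.14% lower. The 5 sgLkb1 libraries had 10.70, 11.28, 11.42, 10.77 and 11.10 log2 CPM of *Fos*, each above the highest of the 7 sgInert libraries at 10.66. For 2.15% of all genes tested, every sgLkb1 library was above every sgInert library. The log2 fold change was 1.18 (SE 0.35, edgeR adjusted p = 0.047), which is 2.27-fold, and 0.68 (edgeR adjusted p = 0.0185) within the MT series, where it was under the fold threshold. With the libraries of each MT animal summed it was 0.54 (edgeR adjusted p = 0.231). With the 14 numbered libraries it was 1.29 (edgeR adjusted p = 0.0883), and with title series as a covariate 0.44 (edgeR adjusted p = 0.58). When 1 library was left out, *Fos* did not pass the p threshold in 11 of 19 cases. In 9 of the 19 no member was called. Endothelial markers summed to 45.8 to 190 CPM in sgLkb1 with 0 of 7 called by edgeR (5 at an unadjusted p under 0.05 and 2 called by DESeq2), and lung epithelial markers to 26800 to 35200 CPM with 1 of 9 lower (*Sftpa1*, -1.08). Fibroblast and mural markers summed to 101 to 262 CPM in sgLkb1 and 13.1 to 162 in sgInert, with 2 of 8 called higher, *Dcn* (2.84) and *Col3a1* (1.70). Their part in the *Fos* value was not tested.

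*Fosb* had 7.15, 8.69, 8.36, 7.63 and 8.49 log2 CPM in the 5 sgLkb1 libraries, of which 3 were above the highest sgInert library at 7.93. Its log2 fold change was 1.14 (SE 0.37, edgeR adjusted p = 0.0766) over all libraries and 1.27 (edgeR adjusted p = 0.00998) within the MT series, where it was the 1 member called, beside 2.38% of all genes called higher. With the libraries of each MT animal summed it was 1.07 (edgeR adjusted p = 0.16), and 0 of 9 members were called by edgeR, with 3 at an unadjusted p under 0.05. In that model 2% of all genes tested were called in either direction. Over the MT libraries kept separate, the fibroblast and mural markers summed to 101 to 227 CPM in sgLkb1, and 5 of 8 were called higher. Over all 19 libraries, the other 7 members had log2 fold changes from -0.00 (*Jund*) to 0.75 (*Egr1*) and none passed the p threshold, with *Junb* at 0.73 (edgeR adjusted p = 0.224), *Atf3* at 0.64 (0.373), *Fosl1* at 0.57 (0.557), *Fosl2* at 0.32 (0.573) and *Jun* at 0.26 (0.7). The values were above 0 for 8 of the 9 members, and their median was 0.64 beside -0.01 for all genes.

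**Figure D3:**
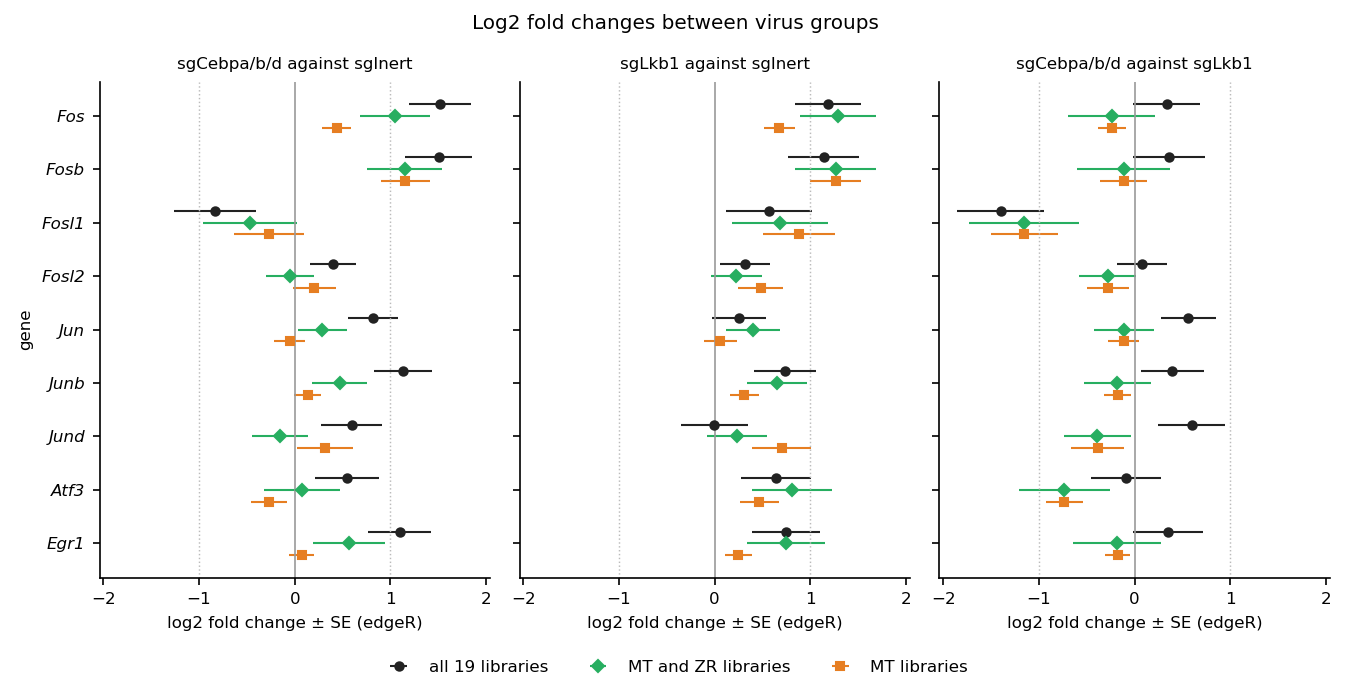
Log2 fold change with a bar of 1 SE for each of the 9 genes in the 3 comparisons between groups, from all 19 libraries, from the 14 numbered ones (MT and ZR) and from the MT series, with dotted lines at -1 and 1. In sgCebpa/b/d against sgInert the points of *Fos*, *Junb* and *Egr1* drop from 1.52, 1.13 and 1.10 over all libraries to 0.44, 0.14 and 0.07 within MT, and *Fosb* goes from 1.5 to 1.15.

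Between sgCebpa/b/d and sgLkb1, 0 of 9 members were called by edgeR, where 2.8% of all genes tested were called. At an unadjusted p under 0.05 there was 1 (*Fosl1*), and DESeq2 and limma each called 1. *Fosl1*, which encodes FRA1, had 0.36, 1.84 and 2.72 log2 CPM (lowest, median and highest) in sgCebpa/b/d and 3.07, 2.69, 3.45, 3.74 and 3.06 in the 5 sgLkb1 libraries, so that 1 sgLkb1 library was under the highest sgCebpa/b/d library. Its log2 fold change was -1.40 (SE 0.45, edgeR adjusted p = 0.0764), with a 95% interval from -2.29 to -0.51, on 6 to 42 counts per sgCebpa/b/d and 39 to 133 per sgLkb1 library. Without sgInert replicate 6, which is in neither group but enters the shared model, 1 member was called. For *Fos* the difference was 0.33 (95% interval from -0.36 to 1.03) over all libraries and -0.24 (edgeR adjusted p = 0.426) within the MT series. Within that series all 9 values were below 0, and *Atf3* was the 1 member past the p threshold (-0.73, edgeR adjusted p = 0.0317), where 6.98% of all genes passed it. With the libraries of each MT animal summed, *Atf3* was at -0.80 (edgeR adjusted p = 0.129).

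The unnumbered libraries differed in the 2 vector groups. In the 3 unnumbered sgCebpa/b/d libraries *Fos* had 11.77, 11.91 and 11.92 log2 CPM, while the 4 MT sgCebpa/b/d libraries had 10.65 to 11.14. *Egr1* had 11.58 to 11.59 against 10.37 to 10.75, and *Jun* 10.87 to 10.95 against 9.49 to 10.08. For 8 of the 9 members every unnumbered library lay above every MT library of sgCebpa/b/d, as was the case for 11.5% of all genes tested. *Fosl1* was the exception, with 0.36, 1.75 and 1.5 against 1.84 to 2.72. In sgLkb1 the 2 unnumbered libraries had 10.70 and 11.10 log2 CPM of *Fos*, inside or below the 10.77 to 11.42 of the 3 MT libraries.

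These differences were tested in a model of the 12 sgCebpa/b/d and sgLkb1 libraries, which was added after the values had been seen, with an adjusted p under 0.05 as the threshold. Within sgCebpa/b/d, 7 of 9 members were higher in the unnumbered libraries, where 6.15% of all 15313 genes in this model were. The log2 differences were 0.92 for *Fos* (edgeR adjusted p = 0.000617), 1.02 for *Jun* (0.000642), 1.23 for *Junb* (0.000259), 1.37 for *Jund* (0.0033), 0.93 for *Atf3* (0.00152), 1.02 for *Egr1* (4.84e-05) and 0.89 for *Fosl2* (0.00923). *Fosb* (0.72, edgeR adjusted p = 0.1) and *Fosl1* (-1.05, 0.153) did not pass. Within sgLkb1, 0 of 9 passed with edgeR, 1 at an unadjusted p under 0.05 (*Atf3*, -0.46), where 0.516% of all genes passed. DESeq2 was not run on this model.

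The difference between the 2 differences passed for 5 of 9 members, all larger in sgCebpa/b/d, where 0.222% of all genes passed in that direction. It was 1.18 for *Fos* (SE 0.23, edgeR adjusted p = 0.0236), 1.40 for *Jun* (0.0208), 2.02 for *Jund* (0.0368), 1.38 for *Atf3* (0.0208) and 1.01 for *Egr1* (0.0213). With libraries of the same numbered animal summed and the unnumbered ones kept separate, 6 of 9 members passed within sgCebpa/b/d. For the difference between the differences 0 of 9 then passed. The shares of all genes that passed with animals summed are not given here, so these 2 counts have no background to be read against. Leaving out 1 library gave 0 to 5 for the difference between the differences, with 0 without sgLkb1 replicate 1. The 3 unnumbered sgCebpa/b/d libraries were all male and the 4 MT ones all female, so title series and sex cannot be told apart there. Immune markers summed to 64.9 to 80.1 CPM in the unnumbered sgCebpa/b/d libraries, 27.2 to 64.8 in the unnumbered sgLkb1 libraries and at most 21.5 in any other library. Endothelial markers summed to 100 to 190 CPM in the unnumbered sgLkb1 libraries, and lung epithelial markers to 25800 to 33900 CPM in the unnumbered and 43100 to 48300 in the MT sgCebpa/b/d libraries. Their part in the difference was not tested.

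In a model of all 19 libraries with group and title series, 0 of 9 members were called between unnumbered and MT libraries by edgeR or by DESeq2, with 3 at an unadjusted p under 0.05, where 2.11% of all genes were called. *Junb* had the largest difference of the 9, 0.83 (edgeR adjusted p = 0.0811). Between ZR and MT libraries 0 of 9 were called by edgeR, 1 by DESeq2 and 2 had an unadjusted p under 0.05, where 1.03% of all genes were called. *Fos* was lower in the ZR libraries by 1.31 on the log2 scale without passing (-1.31, edgeR adjusted p = 0.0571), at 7.53, 9.03, 9.62 and 9.72 log2 CPM against 10.33 to 10.66 in the 3 MT sgInert libraries, and the 2 sets did not overlap. All ZR libraries were sgInert, so this series bears on the control group alone. Of the 15 heat shock genes, 3 were called higher in ZR than in MT libraries, *Hspa1b* (3.23), *Hspa1a* (3.15) and *Hsph1* (1.32). Of 8 fibroblast and mural markers, 3 were called higher in ZR than in MT libraries, *Col1a2* (4.06), *Col1a1* (3.85) and *Col3a1* (2.52), and their list summed to 48.8 to 162 CPM in ZR and 13.1 to 21.4 in MT sgInert libraries. The part of these genes in the *Fos* value was not tested.

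A single library set much of the spread in sgInert. Replicate 6, a ZR library of 5801871 counts, had the lowest level of all 19 libraries for 7 of the 9 members (all but *Fosl2* and *Jund*). The 9 genes summed to 712 CPM there and to at least 2510 in every other library. In *Atf3* it had 4.84 log2 CPM, while the other 6 sgInert libraries had 7.32 to 8.34, and in *Egr1* 7.13 against 9.63 to 10.68. The highest sgInert library exceeded the lowest 11.3-fold for *Atf3*, 11.7-fold for *Egr1*, 12.7-fold for *Fosb* and 8.75-fold for *Fos*. Without replicate 6 these spans were 2.03-fold, 2.08-fold, 2.64-fold and 3.09-fold. *Fosl2* (2.99-fold) and *Jund* (2.55-fold) had the same span with and without it.

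In the same library the 39 other immediate-early genes summed to 2420 CPM and the AP-1 target genes to 1230 CPM, in both cases the lowest of the 19. Heat shock genes at 6620 CPM and lung epithelial markers at 48400 CPM were each the fourth highest, and the 5 erythroid markers reached 3.06 CPM, the highest of the 19. Fibroblast and mural markers summed to 162 CPM, against 13.1 to 76.4 in the other 6 sgInert libraries. Without this library the log2 fold changes of sgCebpa/b/d against sgInert were 1.33 for *Fos* (edgeR adjusted p = 0.00136), 1.31 for *Fosb* (0.00187), 0.96 for *Junb* (0.0154) and 0.90 for *Egr1* (0.0107), so that all 4 kept the p threshold and 2 of them fell under the fold threshold. That of *Fos* in sgLkb1 against sgInert was 1.02 (edgeR adjusted p = 0.0277).

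**Figure D4:**
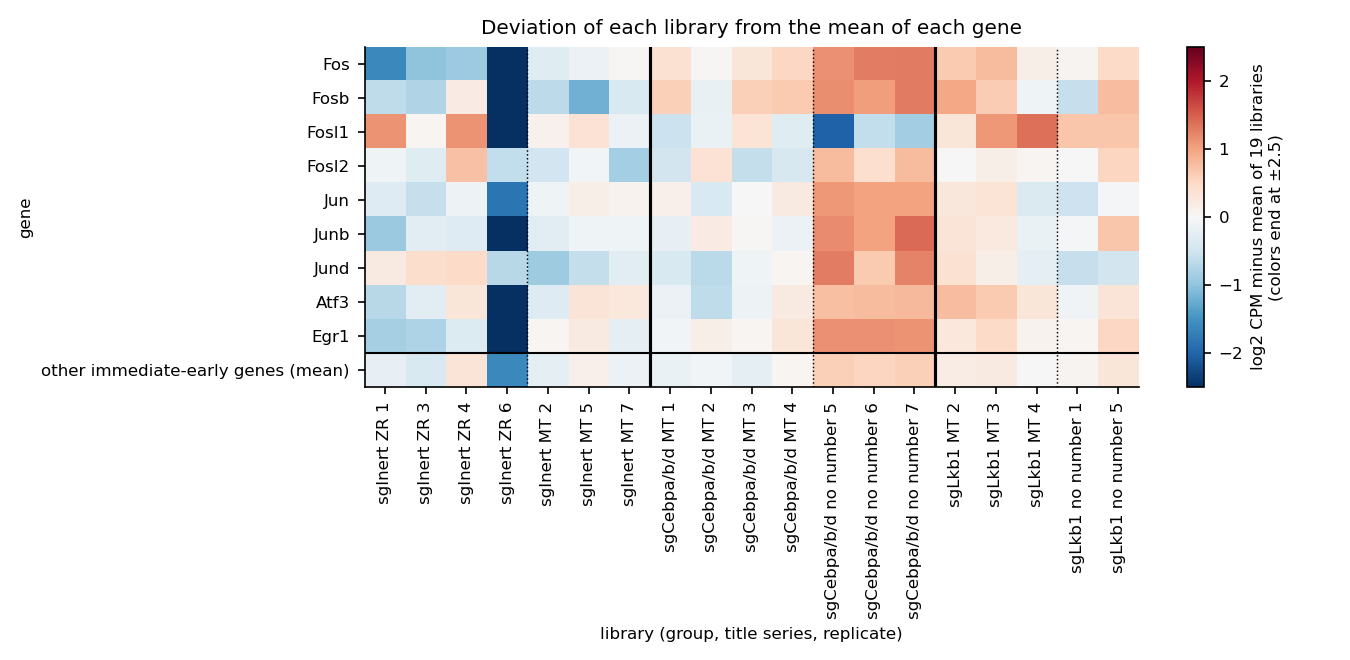
Log2 CPM of the 9 genes in each of the 19 libraries minus the mean over all libraries (colour scale), with a last row for the mean of the other immediate-early genes. The column of sgInert replicate 6 is low for *Fos*, *Fosb*, *Fosl1*, *Jun*, *Junb*, *Atf3* and *Egr1*, and the columns of the 3 unnumbered sgCebpa/b/d libraries are high for all genes but *Fosl1*.

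The variation within groups, pooled over the 3 groups, was above the median of all genes for all 9 members. The biological coefficient of variation (the spread between replicates beyond counting error, as edgeR estimates it) was 0.416 for *Fos*, 0.443 for *Fosb* and 0.519 for *Fosl1*, and lowest for *Fosl2* with 0.314, while the median over all genes tested was 0.295. Relative to genes of all levels these were the 67.3, 70.4, 77.4 and 53.4 percentiles. The groups mix title series, so differences between series enter this pooled value. Within 1 series, the SD of log2 CPM of the members was at the 12 to 62.2 percentiles of all genes in MT sgInert. It was at 65.1 to 97.9 in ZR sgInert, which holds replicate 6. The percentiles were 24.1 to 67.2 in MT sgCebpa/b/d, 0.164 to 81.2 in unnumbered sgCebpa/b/d and 7.65 to 76.1 in MT sgLkb1. The MT libraries came from 2 animals in each group and the 4 ZR libraries from 4. Spread between libraries of 1 animal and spread between animals are therefore mixed in the MT values. Within sgLkb1 alone, *Fos*, *Fosl2* and *Egr1* had an SD of log2 CPM below the median of all genes (0.331), and the 9 members had 0.217 (*Egr1*) to 0.65 (*Fosb*). The highest sgLkb1 library exceeded the lowest 1.38-fold for *Egr1* and 2.91-fold for *Fosb*.

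The members did not all vary alike across libraries. Over the 19 libraries, which share groups and title series, the median Pearson r of a gene with the other 8 was 0.897 for *Egr1*, 0.88 for *Fos*, 0.878 for *Junb*, 0.87 for *Atf3*, 0.868 for *Jun* and 0.866 for *Fosb*. It was 0.545 for *Jund*, 0.514 for *Fosl2* and 0.103 for *Fosl1*. The 5 genes most like *Fos* among all genes tested were *Dusp1*, a phosphatase of MAP kinases (r = 0.985), *Ier2* (0.951), *Egr1* (0.951), *Klf2* (0.945) and *Junb* (0.929), all of them on the lists of immediate-early or AP-1 genes. The 5 most like *Fosl1* were *Hnrnpf* (0.876), *Akr1b8* (0.866), *Zfp319* (0.856), *Nfil3* (0.838) and *Cers3* (0.838), none of which is a member. These are descriptions over libraries that are not independent.

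Across the 10 numbered animals, with the libraries of an animal combined, the levels of 7 of the 9 members rose with the mean log2 CPM of 38 other immediate-early genes, from 4.68 to 6.61. For these 7 the permutation p was 0.00208 to 0.0161 before adjustment for the 9 relations computed. Pearson's r was 0.95 for *Atf3* (permutation p adjusted 0.0138), 0.938 for *Egr1* (adjusted 0.0138), 0.923 for *Fosb* (0.0138), 0.922 for *Jun* (0.0138), 0.902 for *Junb* (0.0207), 0.886 for *Fosl1* (0.0207) and 0.813 for *Fos* (0.0207). *Fosl2* (r = 0.544, adjusted 0.124) and *Jund* (r = 0.416, adjusted 0.254) did not pass. By Spearman's rho 0 of 9 passed the adjusted permutation p, with *Atf3* at rho = 0.818 (adjusted 0.0546) and *Fos* at 0.588 (0.144).

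How far the relation rested on the extreme animals differed between the genes. Without the 2 animals farthest from the median of the list, *Egr1* alone passed (r = 0.89, permutation p adjusted 0.00954). *Fos* had r = 0.791 (0.0778), near its value over 10 animals, without passing. *Fosb*, *Jun*, *Junb* and *Atf3* had r of 0.616 to 0.731, while *Fosl1* fell to 0.278 (0.501) and *Jund* to -0.31 (0.501). This set holds 8 animals, so a pass is also harder to reach. Among the 6 MT animals none of the 9 passed, with *Egr1* at r = 0.823 (permutation p adjusted 0.414). Among the 6 sgInert animals none passed either, with *Fosb* at r = 0.965 (permutation p adjusted 0.0745). The 4 ZR animals are too few for a value of their own.

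**Figure D5:**
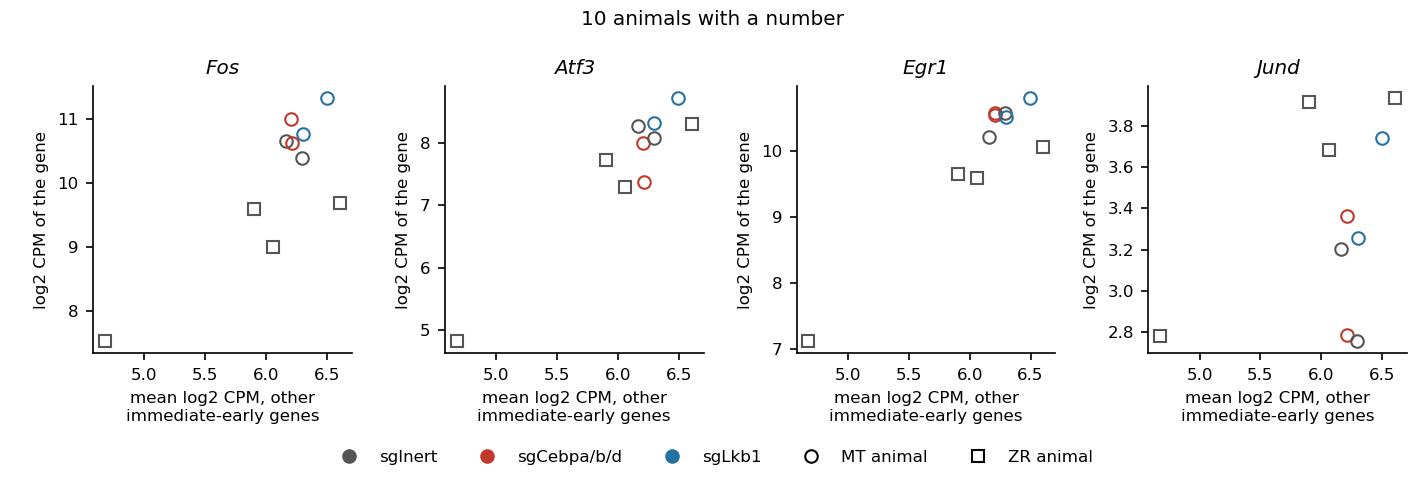
Log2 CPM of *Fos*, *Atf3*, *Egr1* and *Jund* against the mean log2 CPM of 38 other immediate-early genes in the 10 numbered animals, 1 point per animal, coloured by group and shaped by title series. The animal of sgInert replicate 6 is the point at the far left (4.68), and the relation of *Jund* (r = 0.416) did not pass (permutation p adjusted 0.254).

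Of the 38 other immediate-early genes tested, 4 were called higher in sgCebpa/b/d than in sgInert, namely *Klf2* (log2 fold change 1.87), *Ctgf* (1.24), *Dusp1* (1.15) and *Klf4* (1.08), and 0 lower, with a list median of 0.48 beside 0.02 for all genes. Within the MT series 1 was higher (*Ctgf*) and 2 were lower (*Myc* and *Gadd45a*), with a median of -0.02. In sgLkb1 against sgInert 1 was called higher, *Egr2* (1.40), and the median was 0.29 beside -0.01. Of 15 heat shock genes, which are also induced by stress to cells, 0 were called in sgCebpa/b/d against sgInert by edgeR or DESeq2 and 1 had an unadjusted p under 0.05. Within the MT series 2 were higher (*Hspa1a* and *Hspa1b*), with 7 at an unadjusted p under 0.05, where 2.29% of all genes were called higher. With title series as a covariate 2 were higher, and with numbered libraries 0 were by edgeR. Against sgLkb1, 2 were higher in sgCebpa/b/d over all libraries (*Hspa1b* and *Hsph1*), where 2.8% of all genes were called. In sgLkb1 against sgInert 4 were lower, *Hspa1b* (-2.35), *Hspa1a* (-2.18), *Hspb1* (-1.52) and *Hsph1* (-1.38), and within the MT series 0 were by edgeR, with 5 at an unadjusted p under 0.05.

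Of 15 other bZIP genes tested, 1 was lower in sgCebpa/b/d (*Atf5*, -1.64, edgeR adjusted p = 0.000165) and 0 were called in sgLkb1 against sgInert by edgeR or DESeq2, with 2 at an unadjusted p under 0.05. Of 19 upstream genes (such as the RAF and MAP kinases and the serum response factors that act on *Fos* and *Jun*), 0 were called in any of the 3 group comparisons by edgeR or DESeq2, with 2, 8 and 5 at an unadjusted p under 0.05. Of 18 AP-1 target genes tested, 1 was lower in sgCebpa/b/d (*Ptgs2*, the prostaglandin synthase COX-2, -2.08, edgeR adjusted p = 0.000471) and 0 were higher by edgeR, with 6 at an unadjusted p under 0.05 and a median of 0.15. DESeq2 called 2 targets lower and 1 higher, and edgeR with title series as a covariate 1 lower and 1 higher. In sgLkb1 2 targets were higher, *Lif*, a cytokine of the interleukin 6 family (1.85, edgeR adjusted p = 0.00919), and *Mmp14*, a membrane metalloproteinase (1.39, edgeR adjusted p = 6.08e-05), with a median of 0.46. Between sgCebpa/b/d and sgLkb1, edgeR over all libraries called 1 target, *Il6*, which was lower in sgCebpa/b/d (-1.93, edgeR adjusted p = 0.00872). DESeq2 and limma each called 2 lower, as did edgeR in MT libraries, and with title series as a covariate 3 were. Within the MT series *Ptgs2* and *Il6* were lower in sgCebpa/b/d than in sgInert, and the targets higher in sgLkb1 included *Lif* and *Mmp14*. The summed level of the targets in sgInert, at 1230 to 2460 CPM, spanned that in sgCebpa/b/d (1710 to 1930), while sgLkb1 libraries had 2090 to 2550 CPM.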

How the data were processed

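Neoplastic cells were sorted by the authors from dissociated lung tumors, and libraries were made with the Trio RNA-Seq kit. Per the labels, the submitters' processing notes name STAR 2.6.1d, RSEM 1.2.30, DESeq2 1.26.0 and mm10. The deposited expected counts are RSEM's estimates per gene, not normalized (5.81% were not whole), and in the deposited TPM values RSEM also took account of gene length. The authors' own fold changes, standard errors and p-values (3 tables) were not used, nor was their normalized table.

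Expected counts were rounded to whole numbers. The filter filterByExpr, at a count of at least 10 and a total of at least 15, left 13986 genes, which were tested in R 4.3.3 with TMM scaling and the quasi-likelihood test of edgeR 4.0.16 in one model of 19 libraries without covariates, with Benjamini-Hochberg adjustment. Log2 CPM used a prior count of 2. DESeq2 1.42.0 and limma 3.58.1 (on log2(TPM + 1)) were alternatives, beside other scalings, filters, covariates and subsets of libraries. The procedure was tested on simulated data in which every library was independent. That test does not bear on several libraries of 1 animal or on title series that overlap with group and sex. RSEM splits reads shared by similar genes, and counts per library limit the precision of low genes such as *Fosl1* and *Jund*. Intervals cover the spread between libraries, and counts from amplified libraries are not independent molecules. Pairs of libraries of 1 group differed by a chi-square per gene of 6.78 to 69, so that none differed by less than sampling noise.

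Correlations across animals used 100000 permutations, two-sided. Coordinates are GENCODE's for GRCm38, and promoter sequences are RefSeq's for GRCm38.p6. The members and gene lists were chosen with earlier results of these data known. Of each list, up to 3 called genes per comparison with the largest absolute log2 fold change were named, and the 5 genes most correlated with *Fos* and with *Fosl1*. *Klf4*, *Hsph1*, *Cdh5* and *Pecam1*, and list genes named within the MT series, were named after their values had been seen. Some items are not reported here.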

Additional observations from a re-analysis of the deposited data

Results flagged for a closer look

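In 7 of 27 tests, 1 for each member in each group, a library stood apart from the others of its group by Dixon's criterion (the gap of the lowest or highest library to its neighbour, divided by the range of the group), and chance gives about 1 in 20 groups. The tests are not independent, since 6 of the 7 were the same library. sgInert replicate 6 was the lowest with a ratio of 0.618 for *Fosb*, 0.66 for *Fosl1*, 0.63 for *Jun*, 0.657 for *Junb*, 0.709 for *Atf3* and 0.703 for *Egr1*, against a critical value of 0.568 for 7 libraries. *Fosl2* in sgLkb1 had replicate 5 as the highest, with a ratio of 0.712 against 0.71 for 5 libraries.

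The difference between unnumbered and MT libraries was larger in sgCebpa/b/d than in sgLkb1, on the log2 scale, by 1.18 for *Fos*, 1.4 for *Jun*, 2.02 for *Jund*, 1.38 for *Atf3* and 1.01 for *Egr1* (edgeR adjusted p from 0.0208 to 0.0368, in a test added after the values had been seen). With libraries of the same animal summed, 0 of the 9 members passed this test, and the share of all genes that then passed is not given here.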

How the results depend on the processing

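The calls in sgCebpa/b/d against sgInert held under other scalings, filters, DESeq2, limma and sex as a covariate (4 of 9 each). Their number changed with title series as a covariate and with the libraries that entered. The number called was 0 with title series as a covariate, 1 with MT libraries only, 0 with MT libraries summed per animal, 0 with female libraries only and 0 with numbered libraries only, and 2 to 4 when 1 library was left out (2 without sgInert replicate 6). In sgLkb1 against sgInert it was 2 with no filter, 2 with limma, 0 with title series as a covariate, 0 with MT libraries summed per animal, 0 with libraries of the same animal summed, 0 with female libraries, 0 with numbered libraries, 0 with the 2 groups alone, and 0 to 1 when 1 library was left out. Between sgCebpa/b/d and sgLkb1 it was 1 (*Fosl1*) with DESeq2, with limma, with title series as a covariate and with the 2 groups alone, and 0 to 1 when 1 library was left out (1 without sgInert replicate 6). Between ZR and MT libraries it was 1 with DESeq2 and 1 without sgInert replicate 6. Over 35 alternatives the called genes kept their direction, and the edgeR, DESeq2 or limma adjusted p in sgCebpa/b/d against sgInert ranged from 0.000445 to 0.559 for *Fos* (not past the threshold in 4), 0.00158 to 0.221 for *Fosb* (4), 0.00944 to 0.698 for *Junb* (6) and 0.0107 to 0.82 for *Egr1* (13), and from 0.00967 to 0.58 for *Fos* in sgLkb1 against sgInert (16). In sgCebpa/b/d against sgInert, 2.29% of all genes were called higher with MT libraries only. In either direction 1.82% were with these summed per animal and 2.98% with numbered libraries. In sgLkb1 against sgInert these 2 shares were 2% and 2.21%. The shares under the other alternatives are not given here, so those counts have no background to be read against. The causes were not tested.

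Replicate numbers did not pair the libraries, since the deviations of 17 same-numbered pairs correlated at -0.147 to 0.232 with 2 above 0.1, and 3 of 19 libraries correlated best with their own number. With a replicate block the calls were 3, 1 and 0 in the 3 comparisons, and *Jund* in sgLkb1 against sgInert was 0.089. The shares of all genes called with this block are not given here.

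None of the 80 values that turned sign had an adjusted p under 0.05 after the turn. In sgLkb1 against sgInert, *Jund* (-0.00) was 0.0057 with RLE size factors, 0.043 with upper-quartile scaling, 0.00458 with DESeq2, 0.035 with no filter, 0.021 with a stricter filter, 0.018 with length offsets, 0.22 with limma, 0.44 with sex, 0.31 with title series, 0.70 in MT libraries, 0.56 in these summed per animal, 0.12 in female libraries, 0.23 in numbered libraries, 0.010 with the 2 groups alone and -0.15 to 0.12 when 1 library was left out, and *Jun* was -0.22 with title series, -0.0538 in MT libraries summed per animal and -0.00982 in female libraries. In sgCebpa/b/d against sgInert, *Jun* was -0.050 in MT libraries and -0.18 in these summed, *Atf3* -0.27, -0.45 and (female libraries) -0.28, *Fosl2* -0.36 in female and -0.052 in numbered libraries, and *Jund* -0.039 and -0.16.

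In sgCebpa/b/d against sgLkb1, the values in MT libraries, in these summed per animal and in numbered libraries were -0.24, -0.24 and -0.24 for *Fos*, -0.11, -0.15 and -0.11 for *Fosb*, -0.28, -0.066 and -0.28 for *Fosl2*, -0.11, -0.13 and -0.11 for *Jun*, -0.17, -0.021 and -0.18 for *Junb*, -0.39, -0.41 and -0.39 for *Jund*, and -0.18, -0.10 and -0.18 for *Egr1*. In female libraries *Fos* was -0.14, *Fosl2* -0.37, *Junb* -0.27, *Jund* -0.16 and *Egr1* -0.18. *Fosl2* was -0.17 with limma, -0.011 with sex, -0.00644 with title series and -0.057 to 0.19 when 1 library was left out, and *Atf3* was 0.11 with libraries of the same animal summed and -0.21 to 0.011 when 1 library was left out.

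Between unnumbered and MT libraries of sgLkb1, leaving out 1 library gave -1.15 to 0.18 for *Fosb*, -0.074 to 0.46 for *Fosl2*, -0.22 to 0.52 for *Junb* and -0.26 to 0.20 for *Egr1*. The difference between the differences passed for 0 members with libraries of the same animal summed and for 0 to 5 when 1 library was left out. Without the 2 animals farthest from the median, 1 member passed the correlation with other immediate-early genes, and *Jund* had r = -0.31. Counts of 3 to 133 for *Fosl1* and 23 to 170 for *Jund* limit what could be detected for these genes.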
